A study of Mus musculus with 12 samples.

Results

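The 8 genes described here encode the core of major histocompatibility complex (MHC) class I antigen presentation: the heavy chains H2-K1, H2-D1 and H2-T23, the light chain B2m, the peptide transporter subunits Tap1 and Tap2, the loading factor Tapbp and the trimming peptidase Erap1. They were taken by gene symbol from a table of 37991 Ensembl genes, each symbol matched 1 gene, and all 8 passed the filter on low counts that 13538 genes passed. The cells were splenic B cells of mice labelled as 8 weeks old, obtained by negative selection against other cells and CD43+ activated cells. The control mice carried a CD23-driven Cre transgene alone (Cre-only). The Runx1 c-k/o mice carried the same transgene together with Runx1 alleles whose exon 4 is flanked by loxP sites, and since the CD23 promoter turns on at the transitional B cell stage, the deletion followed from that stage. Each genotype was studied at rest and after 3 h of activation with anti-IgM and IL-4, as 3 replicates in each of the 4 groups, and each replicate number is only a sample name except where stated.

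Class I molecules show short peptides from a cell's own proteins to CD8 T cells and to natural killer cells. Proteasomes cut proteins into peptides, the Tap1-Tap2 transporter pumps these into the endoplasmic reticulum, Erap1 trims them, and Tapbp (tapasin) holds empty heavy chain and B2m beside the transporter until a peptide binds. In lymphocytes the heavy chain, B2m, Tap and immunoproteasome genes are driven by the transactivator Nlrc5, by NF-kB and by interferon-regulated factors, and B cells, which also present antigen on MHC class II, express class I at all stages. The comparisons made here are of resting B cells with cells given anti-IgM and IL-4, and of Cre-only with Runx1 c-k/o cells.

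Of the genes, 6 lie in the MHC on chromosome 17 of the mouse build mm9. H2-K1 (ENSMUSG00000061232) spans chr17:34132962-34137278 on the minus strand, Tapbp (ENSMUSG00000024308) chr17:34052844-34066235 on the plus strand, Tap1 (ENSMUSG00000037321) chr17:34324498-34334170 on the plus strand and Tap2 (ENSMUSG00000024339) chr17:34340472-34353266 on the plus strand. H2-D1 (ENSMUSG00000073411) spans chr17:35399675-35404444 on the plus strand and H2-T23 (ENSMUSG00000067212) chr17:36166718-36169800 on the minus strand. B2m (ENSMUSG00000060802) lies outside the MHC at chr2:121973422-121978819 and Erap1 (ENSMUSG00000021583) at chr13:74777320-74829983, both on the plus strand. Exons of Tap1 overlap those of the Psmb9 gene on the opposite strand, exons of Tap2 overlap 2 opposite-strand genes (Gm20496 and Gm15821), exons of H2-T23 overlap 1 opposite-strand gene (BC023719), and exons of Tapbp overlap Zbtb22 on its own strand. The strand setting of the counting is not given in the sources used here, so reads in these overlaps are uncertain, and so is the division of reads among the near-identical heavy-chain genes.

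RefSeq promoter windows of 250 bases before and 50 bases from the annotated start were found for 7 of the 8 genes, and each matched mm9 at 1 place. The window of Tap2 was not analysed here. Each of 6 short motifs was searched on both strands. The core of the interferon-stimulated response element (GAAANNGAA) was in 3 of the 7 windows against 8.56% of 32851 RefSeq promoter windows, and the NF-kB motif GGGNNTTCC in 2 against 5.82%. Only this order of the core's letters was searched, so interferon-stimulated elements with the letters in another order were not counted. Windows without a match, those of H2-K1 and H2-D1 among them, may hold such an element. The motif TGACGC, shared with X2 boxes and CRE-like sites, was in 2 of the 7 against 7.4%, the Y-box motif CCAAT in 6 against 37.4%, the RUNX motif TGTGGT in 1 (Tapbp) against 16.8%, and the GAS motif TTCNNNGAA in 0 against 8.3%. The windows of the 3 heavy chains, which fell, of B2m, which did not pass the test, and of Erap1, which rose, are printed 5′ to 3′ on the gene's strand, from mm9 at chr17:34137243-34137542 (H2-K1, minus strand), chr17:35399789-35400088 (H2-D1, plus strand), chr17:36169597-36169896 (H2-T23, minus strand), chr2:121973173-121973472 (B2m, plus strand) and chr13:74777051-74777350 (Erap1, plus strand). Capitals mark the NF-kB motif in H2-K1 and H2-D1 and the interferon-stimulated core in H2-T23, B2m and Erap1.
H2-K1: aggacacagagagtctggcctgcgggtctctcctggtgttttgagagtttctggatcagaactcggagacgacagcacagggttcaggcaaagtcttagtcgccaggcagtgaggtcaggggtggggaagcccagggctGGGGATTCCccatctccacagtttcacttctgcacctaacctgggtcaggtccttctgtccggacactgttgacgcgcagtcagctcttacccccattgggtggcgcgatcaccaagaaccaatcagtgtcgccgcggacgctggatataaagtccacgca
H2-D1: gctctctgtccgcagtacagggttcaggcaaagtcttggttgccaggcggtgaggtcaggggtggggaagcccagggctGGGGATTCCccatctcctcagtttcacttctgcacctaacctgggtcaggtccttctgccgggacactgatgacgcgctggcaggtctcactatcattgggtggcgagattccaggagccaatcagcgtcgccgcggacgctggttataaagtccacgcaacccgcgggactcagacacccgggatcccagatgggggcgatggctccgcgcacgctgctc
H2-T23: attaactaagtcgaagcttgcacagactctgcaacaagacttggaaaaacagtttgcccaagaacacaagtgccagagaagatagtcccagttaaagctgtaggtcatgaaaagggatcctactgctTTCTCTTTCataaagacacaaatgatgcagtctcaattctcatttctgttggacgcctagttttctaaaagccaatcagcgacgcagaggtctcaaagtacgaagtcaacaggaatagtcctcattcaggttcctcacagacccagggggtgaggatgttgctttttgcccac
B2m: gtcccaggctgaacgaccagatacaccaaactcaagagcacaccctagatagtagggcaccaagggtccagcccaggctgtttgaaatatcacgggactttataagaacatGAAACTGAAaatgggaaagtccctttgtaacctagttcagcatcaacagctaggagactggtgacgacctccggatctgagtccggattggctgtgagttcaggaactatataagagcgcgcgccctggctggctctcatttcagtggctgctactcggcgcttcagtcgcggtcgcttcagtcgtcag
Erap1: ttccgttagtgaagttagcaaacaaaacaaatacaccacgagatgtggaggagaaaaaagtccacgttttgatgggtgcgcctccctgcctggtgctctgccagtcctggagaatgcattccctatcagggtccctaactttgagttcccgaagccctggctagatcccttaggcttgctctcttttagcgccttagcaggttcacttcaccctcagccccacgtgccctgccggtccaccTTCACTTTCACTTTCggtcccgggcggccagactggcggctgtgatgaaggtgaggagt
Counting the start as 1, with no position 0, the NF-kB letters lay at -111 to -103 in H2-K1 and at -171 to -163 in H2-D1, and the interferon-stimulated core lay at -139 to -131 in B2m and, on the opposite strand, at -123 to -115 in H2-T23. Erap1 had 2 overlapping copies of that core, also on the opposite strand, at -9 to -1 and at -3 to 6. TGACGC lay at -41 to -36 in H2-K1 and at -101 to -96 in H2-D1, so its spacing from the NF-kB letters was the same in both. The unlike positions of H2-K1 and H2-D1 thus depend on where each start is annotated. A match of letters is a description and not a binding site.

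Total counts ran from 14442251 to 23641552 per library. The 6 B cell markers summed to between 6909 and 7809 CPM (a gene's count relative to its library's total, scaled by edgeR's TMM factors) in the resting libraries and to between 2457 and 2813 after activation, where Cd79a was lower. The 5 T cell markers summed to at most 5.59 CPM, the 3 NK markers to at most 5.11 and the 3 neutrophil markers to at most 3.52 in any library. The 4 macrophage or monocyte markers summed to between 170.1 and 331.5 CPM at rest and between 11 and 34.8 after activation, and the 3 erythroid markers to between 36 and 408.8 and between 12.3 and 201.9. The 4 dendritic markers summed to between 26 and 30.9 CPM at rest and 10 and 20.7 after activation. The part of these cells in the activation results was not tested. The 3 plasma cell markers (Sdc1, Prdm1, Irf4) summed to between 1293 and 2003 CPM. In activated Cre-only cells 1 of these 3 rose and 2 fell, against 38.6% and 36.4% of all tested genes, so their sum does not follow each gene. Sdc1 was the 1 marker gene of any list that passed the test between genotypes (lower in Runx1 c-k/o at rest). In bulk RNA, fewer cells of a type and less RNA per cell cannot be told apart. The Runx1 row counts all exons and did not show the deletion: it stood at 83.6, 81.8 and 86.7 CPM in resting Cre-only cells against 101.5, 95.7 and 102.7 CPM in resting Runx1 c-k/o cells, and at 38.5, 37 and 34.9 against 47.3, 70.6 and 74.5 CPM after 3 h.

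A pair of Runx1 c-k/o libraries stood apart from the rest. In resting replicate 2 and in 3 h replicate 1, genes whose longest transcript is over 5000 bases took 19.1% and 16.1% of the counts, against 22.4 to 24.9% in the other 10 libraries, and genes under 1500 bases took 22.1% and 22% against 15.4 to 18.5%. Lnpep, a long-transcript gene for an endosomal aminopeptidase, stood at 69.8 and 36.4 CPM there and between 133.3 and 219.6 CPM elsewhere. Genotype results are therefore given with and without these libraries.

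Per kilobase of exon, B2m was the most abundant of the 8 transcripts in every group. In resting Cre-only cells it stood at 1578 ± 66.8 CPM per kilobase of exon (RPKM, SD, n = 3), followed by H2-K1 at 715.4 ± 9.56 and H2-D1 at 683.5 ± 26.2, whose ranges overlapped (705.2 to 724.1 and 656.6 to 708.9 RPKM). H2-T23, a non-classical heavy chain (Qa-1) recognised by NK cell receptors, stood at 109.2 ± 2.06 RPKM. Then came Tapbp at 88.4 ± 2.85, Tap1 at 48.3 ± 2.38, Tap2 at 27.4 ± 0.921 and Erap1 at 21.3 ± 0.861 RPKM. At rest the order was the same in Runx1 c-k/o cells. After 3 h in Cre-only cells Erap1, at 78.9 ± 3.95 RPKM, stood beside H2-T23 at 77.4 ± 5.03 and Tapbp at 76.6 ± 3.40, and the ranges of these 3 overlapped. Dividing by the longest transcript in place of all exons gave 995.6 RPKM for H2-K1 and 841.6 RPKM for H2-D1 in resting Cre-only cells.

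Most of the 8 transcripts were lower after 3 h of activation than at rest, and 1 was higher. No group was cultured without anti-IgM and IL-4, so the parts of culture, IL-4 and the receptor signal cannot be told apart. In Cre-only cells H2-K1, H2-D1, H2-T23, Tap1, Tap2 and Tapbp fell, Erap1 rose, and B2m did not pass the test. Of the 8 genes, 6 fell, where 36.4% of all tested genes did, and 1 rose, where 38.6% of all tested genes did. These calls were at an adjusted p under 0.05 in edgeR's quasi-likelihood test, with no term for pairing. All 3 activated libraries lay below all 3 resting libraries for 6 genes (40.6% of all tested genes) and above them for 1 (43.8%). The median log2 fold change of the 8 was -0.45, against 0.03 over all tested genes. The share that fell was above that of the whole table and the share that rose below it, as a description only, since the 8 genes were chosen with results of these data known.

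**Figure D1:**
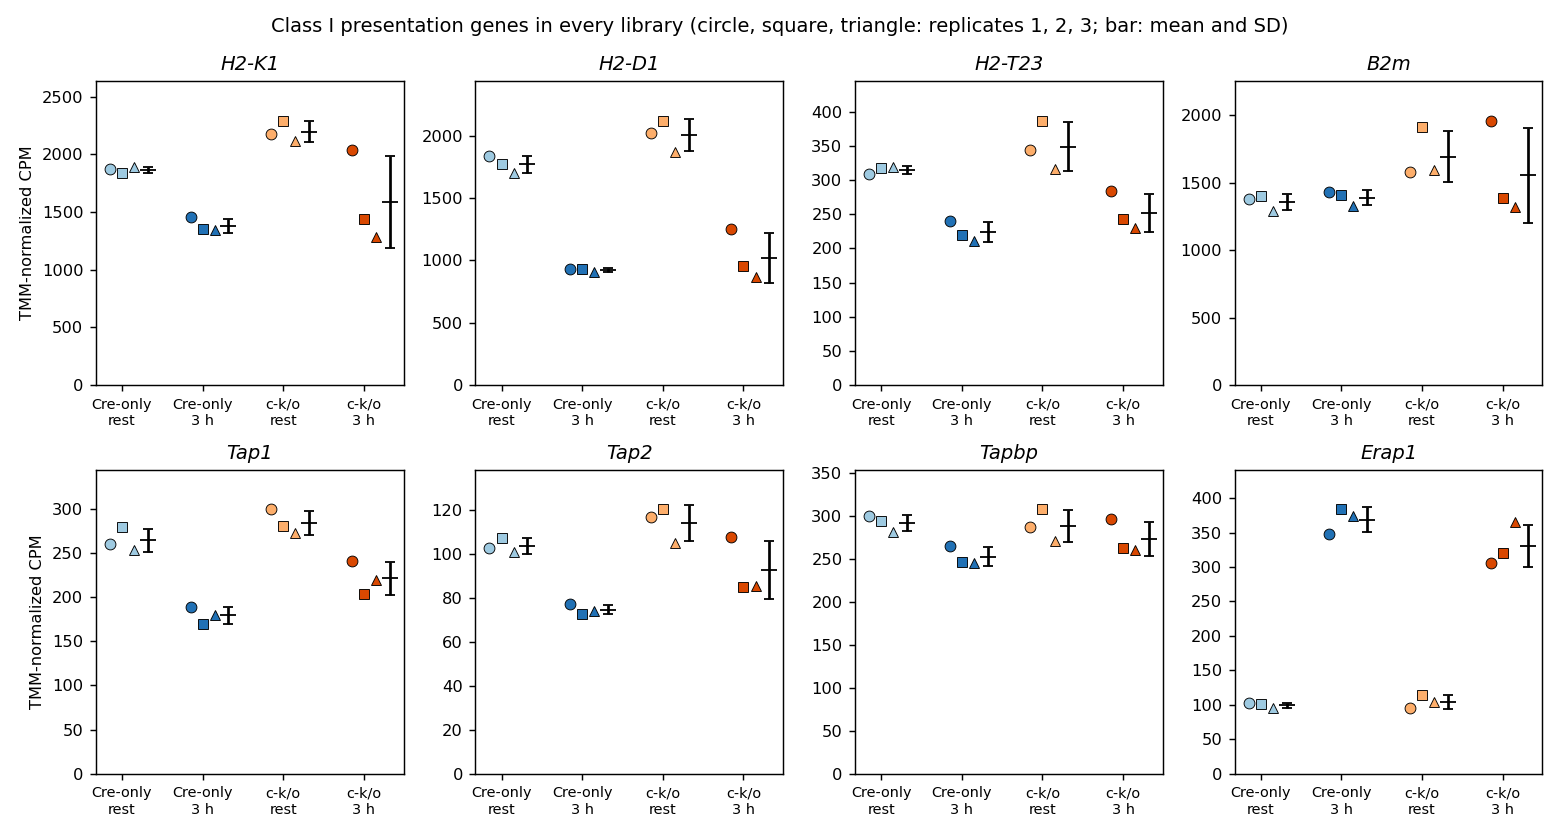
Normalized CPM (vertical axes, from 0) of the 8 genes in each of the 12 libraries; circles, squares and triangles are replicates 1, 2 and 3, and the bar beside them is the mean and SD of the group. H2-D1 stood between 1699 and 1835 CPM in resting Cre-only cells and between 903.8 and 928.7 CPM after 3 h, while Erap1 stood between 94.8 and 102.6 and then between 348 and 383.7 CPM.

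Of the 3 heavy chains among the 8 genes, which carry the peptide groove, H2-D1 had the lowest log2 fold change. It stood at 1835, 1773 and 1699 CPM in the resting Cre-only libraries and at 928, 928.7 and 903.8 CPM after 3 h. The groups lay far apart, and the log2 fold change was -0.94 (SE 0.129, edgeR adjusted p = 2.77e-05), a 1.92-fold lower level. H2-K1 went from 1870, 1839 and 1889 CPM to 1452, 1348 and 1341 CPM, also with no overlap (log2 fold change -0.43, SE 0.147, edgeR adjusted p = 0.0172). H2-T23 went from 308.5, 318.6 and 319 CPM to 239.6, 220.3 and 211.1 CPM (-0.50, SE 0.104, edgeR adjusted p = 0.000889). The call for H2-K1 was lost without Cre-only 3 h replicate 2 (adjusted p = 0.0576) or replicate 3 (adjusted p = 0.0595).

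The ratio of H2-D1 to H2-K1 counts within a library, which no scaling between libraries can alter, also dropped. It was 0.981, 0.964 and 0.9 in resting Cre-only libraries and 0.639, 0.689 and 0.674 after activation. In Runx1 c-k/o libraries it was 0.929, 0.925 and 0.885 at rest and 0.613, 0.661 and 0.675 after activation, so that in both genotypes the resting and activated libraries did not overlap. With 3 libraries against 3, an exact two-sided permutation test cannot give a p below 0.1, and 6 such ratios were computed.

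B2m, the light chain that every class I heavy chain needs, did not pass the test. It stood at 1379, 1401 and 1292 CPM at rest and at 1431, 1407 and 1327 CPM after 3 h in Cre-only cells. These groups overlapped, and the 95% interval of the change ran from -17.9% to 27.5%. Its ratio to the summed counts of H2-K1 and H2-D1 was higher after activation: 0.372, 0.388 and 0.36 at rest and 0.602, 0.618 and 0.591 at 3 h in Cre-only libraries, and 0.375, 0.434 and 0.4 against 0.597, 0.581 and 0.614 in Runx1 c-k/o libraries. The libraries at the 2 times did not overlap in either genotype. Whether B2m itself fell depends on the terms of the model. With 1 added factor of unwanted variation (RUVs, estimated from replicate libraries), its log2 change in Cre-only cells was -0.50 in edgeR (adjusted p = 0.000452) and -0.61 in DESeq2 (adjusted p = 8.9e-09). These were the 2 of 16 alternative analyses in which B2m passed. The log2 change of H2-K1 with that factor was -0.92 and -1.03.

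**Figure D2:**
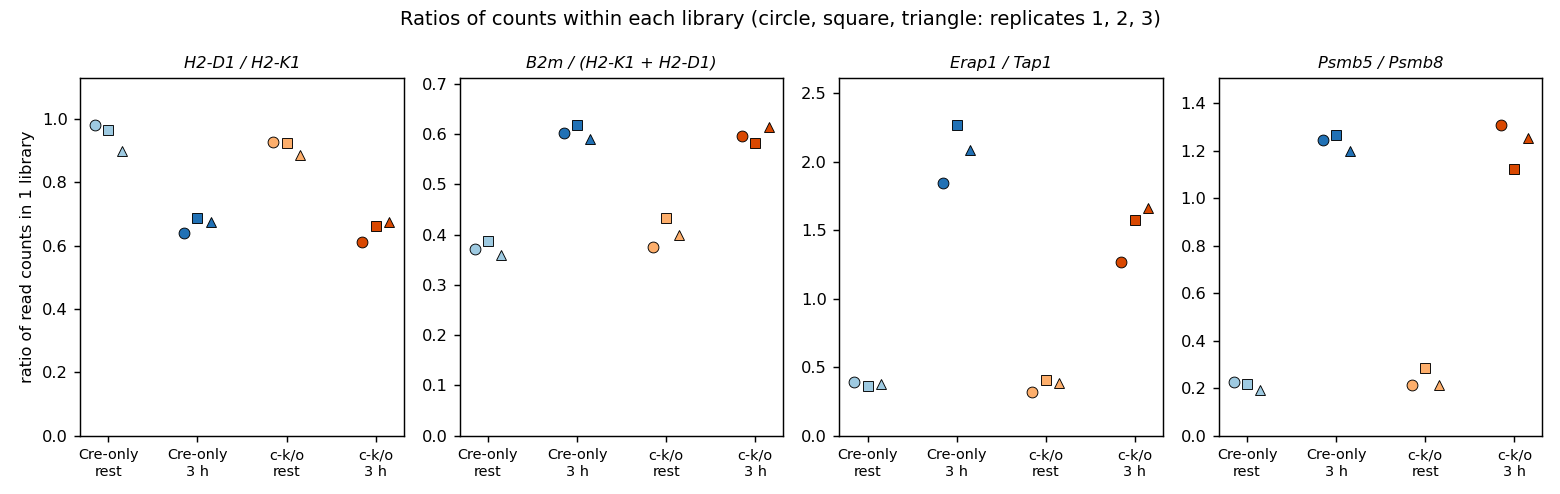
Ratios of read counts of named gene pairs within each library (vertical axes, from 0), by group; circles, squares and triangles are replicates 1, 2 and 3. In all 4 panels the resting and activated libraries of a genotype were separate, with Erap1/Tap1 between 0.317 and 0.407 at rest and between 1.27 and 2.27 after activation over both genotypes.

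Both transporter subunits fell. Tap1 went from 260.4, 278.7 and 253.5 CPM to 188.9, 169.2 and 179.3 CPM in Cre-only cells (log2 fold change -0.56, SE 0.0891, edgeR adjusted p = 9.64e-05). Tap2 went from 102.5, 107.4 and 100.7 CPM to 77, 72.8 and 74.1 CPM (-0.47, SE 0.0993, edgeR adjusted p = 0.000882). For both, each activated library was below each resting one, and in Cre-only cells the Tap1 to Tap2 count ratio was 2.54, 2.59 and 2.52 at rest and 2.45, 2.32 and 2.42 at 3 h, lower without overlap. In Runx1 c-k/o libraries that ratio was 2.56, 2.33 and 2.59 at rest and 2.24, 2.39 and 2.57 at 3 h, with overlap. Tapbp, the tapasin gene, went from 299.4, 294.2 and 281.1 CPM to 265.4, 246.6 and 245.4 CPM (-0.21, SE 0.0861, edgeR adjusted p = 0.0439). That call was lost in 9 of 16 alternative analyses, among them each of the 6 that left out 1 Cre-only library and the replicate block within genotype (edgeR adjusted p = 0.0998).

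Erap1, the aminopeptidase that trims peptides inside the endoplasmic reticulum, moved the other way. It stood at 102.6, 100.6 and 94.8 CPM in resting Cre-only libraries and at 348, 383.7 and 373.9 CPM after 3 h. The rise was 3.71-fold (log2 fold change 1.89, SE 0.0998, edgeR adjusted p = 1.89e-08), and it passed the test in all 16 alternatives (log2 fold change 1.73 to 1.94). Relative to Tap1 in the same library, Erap1 counts were 0.394, 0.361 and 0.374 at rest and 1.84, 2.27 and 2.09 at 3 h.

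In Runx1 c-k/o cells the same genes other than Tapbp passed the test on activation. H2-K1 (log2 fold change -0.47, SE 0.147, edgeR adjusted p = 0.0118), H2-D1 (-0.97, SE 0.129, adjusted p = 2.23e-05), H2-T23 (-0.47, SE 0.104, adjusted p = 0.0014), Tap1 (-0.36, SE 0.0889, adjusted p = 0.0028) and Tap2 (-0.30, SE 0.0991, adjusted p = 0.0159) fell. Erap1 rose 3.17-fold, from 94.7, 114.1 and 103.7 CPM to 305.5, 320.5 and 364.8 CPM (edgeR adjusted p = 4.81e-08). Tapbp (95% interval -16.8% to 7.8%) and B2m (-26.3% to 14.5%) did not pass. So 5 of 8 fell and 1 rose, against 36.6% and 37.7% of all tested genes, and the libraries at the 2 times did not overlap for 4 that were lower and 1 that was higher, against 36.3% and 36.5%. Without 3 h replicate 2, 4 of the 8 passed, the calls for H2-K1 (edgeR adjusted p = 0.0519) and Tap2 (0.0769) being lost. The Tap2 call was also lost without rest replicate 2 (0.0514) or 3 h replicate 3 (0.069), and both calls with only these groups in the fit (0.0649 for H2-K1 and 0.0716 for Tap2). Without 3 h replicate 1, 7 of the 8 passed, B2m among those that were lower. With both outlying libraries left out B2m fell by 0.25 on the log2 scale (edgeR adjusted p = 0.00256).

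**Figure D3:**
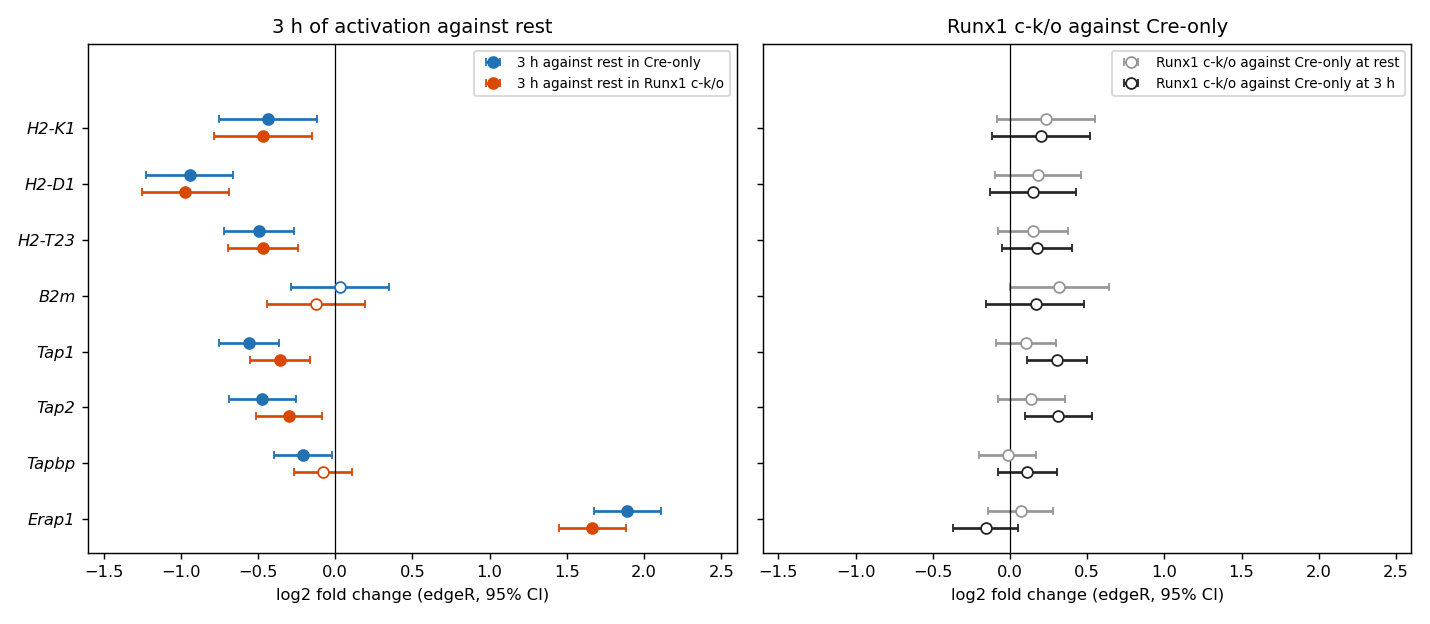
Log2 fold changes (horizontal axes) of the 8 genes with 95% confidence intervals from edgeR, for 3 h against rest in each genotype (left) and for Runx1 c-k/o against Cre-only at each time (right); filled points have an adjusted p under 0.05 and open points do not. On the left 7 genes are filled for Cre-only cells and 6 for Runx1 c-k/o cells, with Erap1 at 1.89 and 1.66; on the right none is filled.

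The difference between the genotypes in the response itself was tested as an interaction. By edgeR 0 of 8 genes passed in either direction, where 0.0665% of all tested genes passed upward and 0.0148% downward; 0 of the 8 had an unadjusted p under 0.05, and DESeq2 called 0. The interaction ran from -0.23 on the log2 scale for Erap1 (95% interval -0.52 to 0.07) to 0.20 for Tap1 (-0.07 to 0.47). These intervals bound the difference, and do not show that the responses were equal.

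At rest, H2-K1, H2-D1 and B2m were each higher in all 3 Runx1 c-k/o libraries than in all 3 Cre-only libraries, but none passed the test. That is 3 of 8 genes, where 12% of all tested genes were higher in this way and 11.6%, with 0 of the 8, lower. B2m stood at 1379, 1401 and 1292 CPM in Cre-only and 1576, 1914 and 1593 CPM in Runx1 c-k/o cells. The groups did not overlap, and the 95% interval of the difference ran from 0.1% to 55.6% higher (edgeR adjusted p = 0.448). H2-K1 stood at 1870, 1839 and 1889 CPM against 2178, 2291 and 2111 CPM (-5.8% to 46.6%), and H2-D1 at 1835, 1773 and 1699 CPM against 2023, 2119 and 1869 CPM (-6.6% to 37.4%). The other 5 genes overlapped between genotypes: H2-T23 at 343.8, 387.2 and 316.1 CPM, Tap1 at 299, 280.4 and 271.9, Tap2 at 116.8, 120.2 and 105, Tapbp at 286.8, 307.4 and 270.8, and Erap1 at 94.7, 114.1 and 103.7 CPM in Runx1 c-k/o cells.

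By edgeR 0 of the 8 genes passed between genotypes at rest, where the Runx1 c-k/o level was higher for 0.731% of all tested genes and lower for 0.761%. Of the 8, 1 had an unadjusted p under 0.05, B2m, and DESeq2 called 0. Without the 2 outlying libraries B2m was higher by 0.23 on the log2 scale (edgeR adjusted p = 0.0439), and with 1 RUVs factor it was called by DESeq2 (0.22, adjusted p = 0.0121) and not by edgeR (0.23, adjusted p = 0.0526). Resting Runx1 c-k/o replicate 2 was the highest library of its group for 7 of the 8 genes.

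After 3 h the subunits of the transporter were the genes with the clearest difference. Tap1 stood at 188.9, 169.2 and 179.3 CPM in Cre-only and 240.9, 203.6 and 219.1 CPM in Runx1 c-k/o cells. Tap2 stood at 77, 72.8 and 74.1 CPM against 107.8, 85.1 and 85.2 CPM. Both were separate between genotypes, which makes 2 of 8 genes, where 9.5% of all tested genes were higher in all 3 Runx1 c-k/o libraries; 0 of 8 were lower in this way, where 12.3% of all tested genes were. The log2 fold changes were 0.30 for Tap1 (95% interval 0.11 to 0.50, edgeR adjusted p = 0.104) and 0.31 for Tap2 (0.10 to 0.53, edgeR adjusted p = 0.142).

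By edgeR 0 of the 8 genes passed between genotypes at 3 h, where 1.47% of all tested genes were higher and 1.3% lower. Of the 8, 2 had an unadjusted p under 0.05, Tap1 and Tap2, and DESeq2 called these 2 (adjusted p = 0.00618 and 0.0414). With 1 RUVs factor both tools called both (edgeR adjusted p = 0.0269 and 0.0243). Without the 2 outlying libraries Tap1 passed (0.26, edgeR adjusted p = 0.0236) and Tap2 did not (0.21, edgeR adjusted p = 0.0543).

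The remaining 6 genes overlapped between genotypes after activation. In Runx1 c-k/o cells H2-K1 stood at 2035, 1438 and 1283 CPM, H2-D1 at 1248, 950.5 and 866.3 CPM and B2m at 1960, 1388 and 1320 CPM. In each case replicate 1, one of the outlying libraries, was far above the other two. Without both outlying libraries the log2 difference from Cre-only cells was 0.003 for H2-K1, 0.005 for H2-D1 and -0.01 for B2m, against 0.20, 0.15 and 0.16 with all 12. H2-T23 (284, 242.9 and 230.6 CPM) and Tapbp (295.7, 262.9 and 260.5 CPM) had the same order, while Erap1 was lowest in replicate 1 (305.5, 320.5 and 364.8 CPM). The 95% interval of the Erap1 difference was -22.5% to 3.6%.

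**Figure D4:**
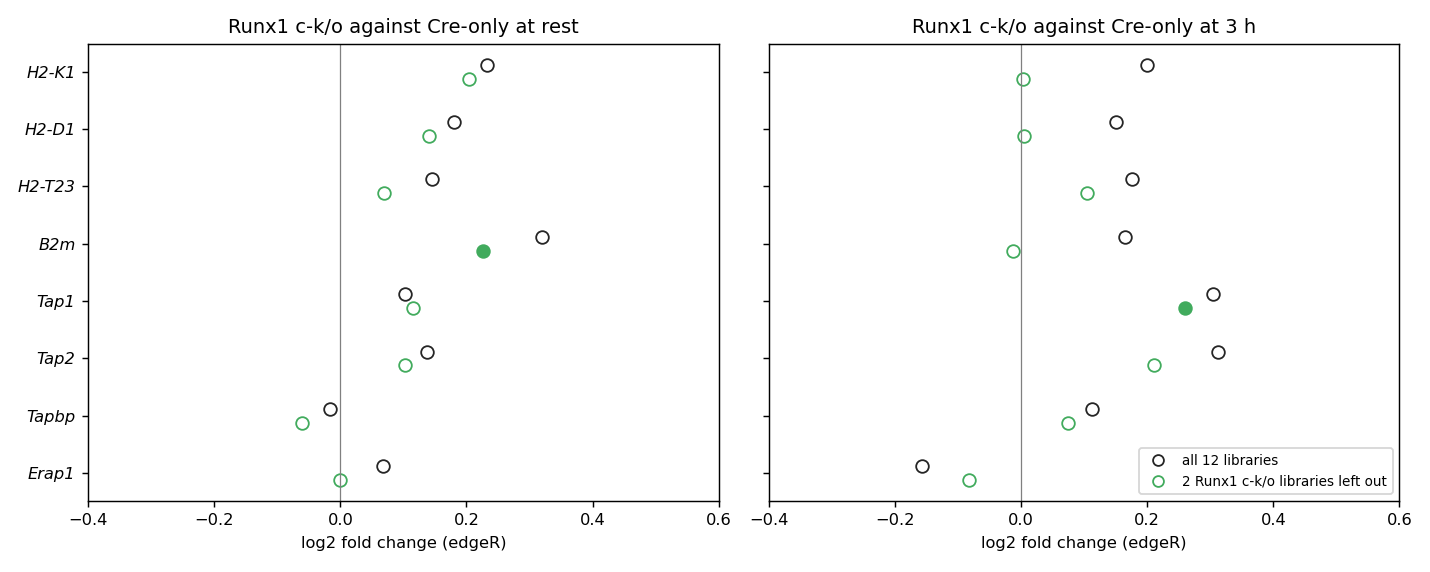
Log2 fold changes (horizontal axes, edgeR) of the 8 genes between genotypes, Runx1 c-k/o over Cre-only, with resting cells left and activated cells right, from all 12 libraries (black) and with the 2 outlying Runx1 c-k/o libraries left out (green); filled points have an adjusted p under 0.05. The 3 h values of H2-K1, H2-D1 and B2m moved to 0.003, 0.005 and -0.01, and Tap1 moved from 0.30 to 0.26.

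Within groups 7 of the genes varied together and Erap1 did not, as a description over the 12 libraries. After the group means were removed, the log2 levels of H2-K1 correlated with those of H2-D1 at r = 0.95, of B2m at 0.91 and of Tap2 at 0.89. Tap1 was looser, at 0.57 with H2-K1 and 0.53 with B2m. Erap1 stood at -0.52 with H2-K1. The points share libraries, and the outlying libraries are among them. Over the 12 libraries, the genes outside the set closest to the mean of the 8 centred log2 levels included the ribosomal protein genes Rpl17 (r = 0.986) and Rps27 (0.966), and also Pfdn5 (0.964) and Gm10294 (0.962).

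The other class I heavy chains fell as well. Of 31 listed genes, 13 were tested, and 13 of 13 fell in activated Cre-only cells, where 36.4% of all tested genes fell, with a median log2 fold change of -1.39. In Runx1 c-k/o cells 13 of 13 fell, where 36.6% of all tested genes did. Those with the smallest adjusted p were Mr1, which presents microbial metabolites (12.1, 12.8 and 11 CPM at rest and 1.12, 0.915 and 0.828 CPM at 3 h), Cd1d1, which presents lipids to NKT cells (64.1, 68 and 73.9 CPM and then 2.42, 2.29 and 2.29 CPM), and H2-T22, a ligand of gamma-delta T cell receptors (132, 125.8 and 115 CPM and then 48.9, 41.5 and 44.2 CPM). Their log2 fold changes were -3.62, -4.87 and -1.47 (edgeR adjusted p = 2.6e-08, 3.03e-08 and 9.41e-08). Summing 26 heavy-chain rows takes out a wrong division of reads among them, but not reads dropped or counted more than once. The sum was 6165, 6043 and 6237 CPM at rest and 3825, 3620 and 3579 CPM after activation in Cre-only cells. H2-K1, H2-D1 and H2-T23 made up 62.6 to 65.1% of this sum at rest and 68.5 to 69% at 3 h.

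Between genotypes at rest the 26 rows summed to 7539, 7283 and 6929 CPM in Runx1 c-k/o cells, all above Cre-only. Of the 13 tested genes, 6 were higher in all 3 libraries, where 12% of all tested genes were, and 0 passed by edgeR, with 5 at an unadjusted p under 0.05 and 1 called by DESeq2 (H2-Q7). Without the 2 outlying libraries 4 of the 13 passed and were higher (H2-Q4, H2-Q6, H2-Q7 and H2-T10), where 287 of 13751 tested genes were higher. At 3 h 0 of 13 passed by edgeR with all libraries (1 at an unadjusted p under 0.05, and 1 by DESeq2, Hfe). Without the 2, 1 of 13 was higher, H2-T24, where 565 of 13751 tested genes were. Reads of H2-Q genes can map to more than 1 copy.

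The proteasome genes moved in opposite directions. All 3 constitutive catalytic subunits tested rose in activated Cre-only cells, where 38.6% of all tested genes rose: Psmb5 (log2 fold change 1.75, edgeR adjusted p = 9.63e-06), Psmb6 (1.17) and Psmb7 (1.09). Psmb8 and Psmb10, the immunoproteasome subunits that take the places of Psmb5 and Psmb7, fell. Psmb8 went from 120.5, 124 and 117.3 CPM to 69.9, 68.3 and 70 CPM (-0.80, SE 0.14, edgeR adjusted p = 0.000216). Psmb10 went from 66.3, 67.3 and 66.5 CPM to 41.3, 36.5 and 36.5 CPM (-0.81, SE 0.17, edgeR adjusted p = 0.000921). The ratio of Psmb5 to Psmb8 counts was 0.226, 0.216 and 0.191 at rest and 1.25, 1.27 and 1.2 after activation. Psmb9 was listed at 0 in all 12 libraries under both of its 2 gene identifiers, whose exons overlap each other, so its level is unknown here. Of the PA28 regulators, Psme3 (2.06) and Psme2 (1.18) rose and Psme1 had a log2 fold change of 0.25 (edgeR adjusted p = 0.215). With 1 RUVs factor the call for Psmb7 was lost in both tools (edgeR adjusted p = 0.125) and that for Psme2 in DESeq2 (adjusted p = 0.0889).

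Peptidases and folding factors rose beside Erap1. Of 7 cytosolic and endosomal peptidases 5 rose and 0 fell in Cre-only cells, among them Lap3 (log2 fold change 2.77), Thop1 (2.81), which destroys peptides in the cytosol, and Npepps (0.65). All 10 genes of peptide loading and protein folding rose, with a median of 0.86, and those with the smallest adjusted p were Canx (1.76), the chaperone of new heavy chains, Sec61a1 (0.89), a channel of the endoplasmic reticulum, and Hspa5 (1.21). Over all tested genes 38.6% rose. Of 4 tested genes of surface turnover, March9 (0.96), a ubiquitin ligase for class I, and Ap1g1 (0.48) rose and Bcap31 (-0.85), an export receptor, fell. The March9 call was lost with 1 RUVs factor in both tools (adjusted p up to 0.212) and the Ap1g1 call with at least 10 counts in every sample (edgeR adjusted p = 0.0946). Of 11 MHC class II rows 3 rose and 6 fell, where 36.4% of all tested genes fell. The smallest adjusted p were those of H2-Oa (-2.06), H2-Ob (-1.55) and H2-DMb1 (-0.74), all lower. Of the 11 rows 5 had a log2 fold change above 0. Among these, mean levels went from 4249 to 6822 CPM for H2-Aa, 3078 to 3958 for H2-Ab1 and 2930 to 4487 for H2-Eb1.

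**Figure D5:**
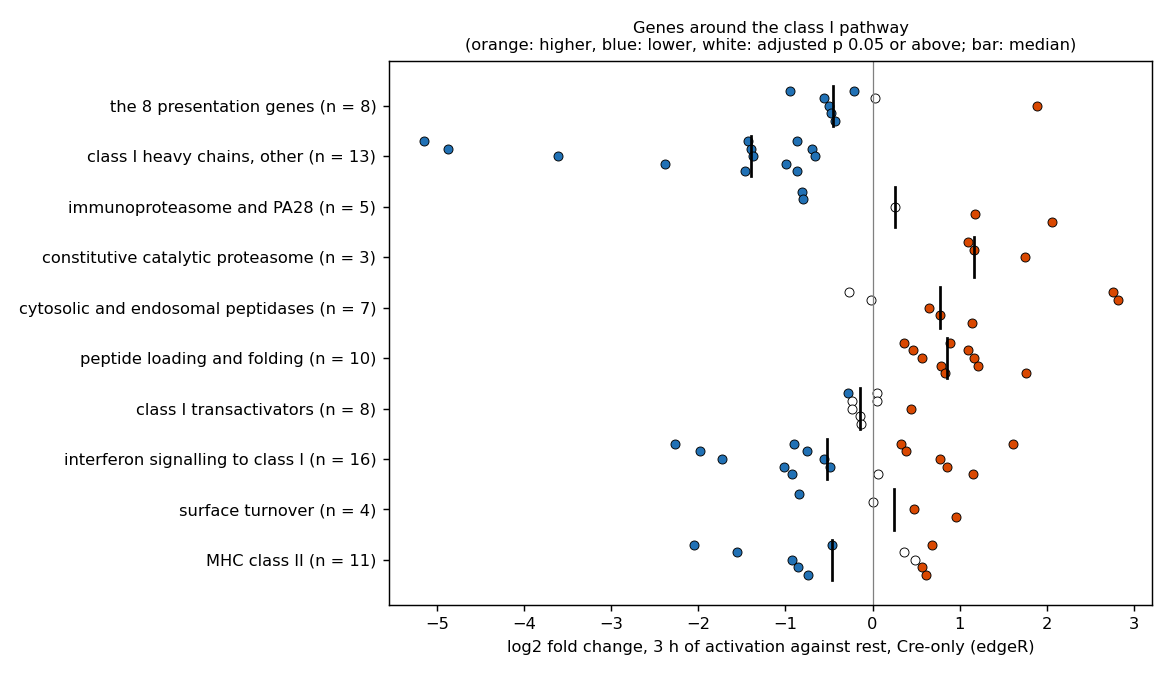
Log2 fold changes (horizontal axis) of tested genes in 10 lists after 3 h against rest in Cre-only cells, 1 point a gene; orange points rose and blue points fell at an edgeR adjusted p under 0.05, white points did not pass, and the bar is the list's median. The other heavy chains lie between -5.15 and -0.67, and the peptide loading and folding genes between 0.37 and 1.76.

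The regulators of the class I genes gave a mixed picture on activation. Nlrc5, the class I transactivator, stood at 166.5, 179.3 and 167.9 CPM at rest and 188.1, 169.7 and 176.2 CPM at 3 h in Cre-only cells, with a 95% interval of -17.3% to 30.6%. With 1 RUVs factor it was higher by 0.62 (edgeR adjusted p = 0.00116). Of the 8 transactivator genes Nfyb rose (0.44) and Rfxank fell (-0.28), and the Rfxank call was lost without any 1 of 3 Cre-only libraries (rest replicate 2, rest replicate 3 or 3 h replicate 3). The Nfyb call was lost with 1 RUVs factor in both tools (adjusted p up to 0.446). Of 16 genes of interferon and NF-kB signalling 6 rose and 9 fell, against 38.6% and 36.4% of all tested genes. Those with the smallest adjusted p were Irf2 (-2.26), Ifngr1 (-1.72) and Irf7 (-1.98), all lower. Irf1, a direct activator of class I genes, went from 180.3, 178.7 and 163.1 CPM to 149.5, 108 and 97.7 CPM (-0.56, SE 0.173, edgeR adjusted p = 0.0113). The Irf1 call was lost without Cre-only 3 h replicate 2 (adjusted p = 0.0502) or replicate 3 (adjusted p = 0.0602).

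Between genotypes, the interferon list was the 1 list of these 9 in which edgeR made calls with all 12 libraries, while DESeq2 also called H2-Q7 and Hfe, as given above, and Npepps, lower at 3 h. At rest 2 of 16 genes were higher in Runx1 c-k/o cells, Ifnar1 and Irf7, and 0 lower, against 0.731% and 0.761% of all tested genes. At 3 h 4 of 16 were higher, among them Irf7, Ifnar1 and Irf9, and 1 was lower, Tyk2, against 1.47% and 1.3%. With the 2 outlying libraries left out, 4 of 16 were higher and 1 lower at rest, where 287 and 311 of 13751 tested genes were. In that fit 6 of 16 were higher and 1 lower at 3 h, where 565 and 349 of all tested genes were. Irf7 and Ifnar1 are among the genes the study itself drew from these samples, so their direction is not independent evidence. Irf9, a DNA-binding subunit of the complex that turns on interferon-stimulated genes, stood at 82.4, 82.4 and 86.3 CPM in activated Cre-only libraries against 106.9, 113.7 and 115.5 CPM in activated Runx1 c-k/o libraries (log2 fold change 0.42, edgeR adjusted p = 0.0235). Tyk2, a kinase of the type I interferon receptor, stood at 55.4, 51.7 and 51.9 CPM against 33.6, 41.7 and 43.3 CPM (-0.42, edgeR adjusted p = 0.0405).

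The Irf9 call was lost without any 1 of the 3 activated Cre-only libraries or Runx1 c-k/o 3 h replicate 2 and with only the 2 groups compared (edgeR adjusted p up to 0.108). The Tyk2 call held in 5 of 15 alternatives. It was lost without any 1 of the activated Cre-only libraries or Runx1 c-k/o 3 h replicate 1 or 2, with DESeq2's size factors in edgeR, with no filter or at least 10 counts in every sample, under the replicate block and with only the 2 groups compared (edgeR adjusted p up to 0.237). Nlrc5 (179.6, 131 and 154.4 CPM in resting and 139.9, 187.7 and 220.9 CPM in activated Runx1 c-k/o libraries), Psmb8, Psmb10 and Irf1 did not pass at either time.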

How the data were processed

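Polyadenylated RNA of splenic B cells was sequenced in 12 stranded, paired-end libraries. The authors processed the reads with CASAVA 1.8.4, TopHat2 2.0.11 (mm9/NCBIM37) and featureCounts, and deposited whole-number counts per Ensembl gene, not normalized. The strand and multi-mapping settings of the counting are not given in the sources used here. ERCC RNA was added to the lysates, but 0 such entries are in the table used here, so levels are relative to each library's total.

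Counts were scaled by TMM and tested in edgeR 4.0.16 (R 4.3.3; filterByExpr with a minimum count of 10, robust quasi-likelihood fit, all 4 groups in 1 model, Benjamini-Hochberg adjustment over 13538 genes, threshold 0.05), the study's own DESeq2 being an alternative. RPKM used the exon length of the mm9 annotation. Intervals are 95%, and depth limits them by counting error: 3 counts equal 0.127 to 0.208 CPM. In simulated counts of 13319 genes for the 3 h genotype comparison, 200 genes were changed. Of these edgeR called 145, with 9 unchanged genes, and DESeq2 called 159, with 24. The median log2 fold change of those changed upward was 0.987 in edgeR and 0.989 in DESeq2. In the measured 3 h comparison the class I genes described here ran from -0.158 to 0.312 on that scale. Detection of differences that small was not tested. Alternatives were DESeq2 1.42.0, its size factors in edgeR, 1 RUVs factor, no filter, at least 10 counts in every sample, only the compared groups, a replicate block, each library left out and, chosen after seeing the data, both outlying libraries left out. The RUVs factor was computed from replicate differences, as the study's methods name RUV-seq.

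The samples are given as biological replicates, and where nothing ties a number to an animal the p-values measure only the spread between these samples. Same-numbered rest and 3 h libraries deviated together in Cre-only (r = 0.275, 0.176 and 0.144) and not throughout in Runx1 c-k/o (-0.254, -0.264 and 0.254). In Runx1 c-k/o the 2 outlying libraries, rest replicate 2 and 3 h replicate 1, deviated together (r = 0.477), and each negative value involves 1 of them. These values cannot show whether the Runx1 c-k/o samples were paired. The numbers were taken to pair the Cre-only activation samples alone, from the data and not from a label. The main fit held no term for this pairing, so its activation p-values are unpaired. A replicate block within genotype was an alternative, and Tapbp lost its Cre-only call under it.

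The genes, gene lists and comparisons were chosen with earlier results of these data known. Named were all 8 genes, Psmb8, Psmb9, Psmb10, Nlrc5, Irf1 and Runx1, up to 3 called genes with the smallest adjusted p per list and comparison, and the 5 genes most like the mean of the 8; Irf9, Tyk2, March9, the 4 H2 genes and others beyond these were named after their values were seen. Some genes that the rule would name are not reported here. Columns of the authors' comparisons were not used.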

Additional observations from a re-analysis of the deposited data

How the results depend on the processing

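Of the 664 alternative values of the 8 genes over the 5 comparisons, 602 kept their direction and their side of the threshold, 15 came to pass, 17 no longer passed and 30 changed sign, the last mostly among values near 0. Depth does not limit the 8 genes, and 3 libraries a group and the 2 outlying libraries do: the cause of their profile was not tested. Levels are relative, so a change of total RNA per cell cannot be seen. Where a replicate block was used, 6 of the 8 genes passed on activation in each genotype, and 0 in the other comparisons. For the pairing of the Cre-only samples only Tapbp changed its call. Apart from that comparison no pairing was taken, and no gene of the 8 changed its call. In the list of regulators, Irf9 and Tyk2 at 3 h lost theirs under the block (adjusted p = 0.0565 and 0.0802).

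The number of the 8 genes called between genotypes at rest was 0, and 1 (B2m) with 1 RUVs factor in DESeq2 and 1 with the 2 libraries left out. At 3 h it was 0, and 2 (Tap1, Tap2) with DESeq2, 2 with 1 RUVs factor in edgeR, 2 with it in DESeq2 and 1 (Tap1) with the 2 libraries left out. The Cre-only activation count was 5 to 6 and the Runx1 c-k/o count 4 to 7 over the fits that left out 1 library each. With the 2 outlying libraries left out, 287 of 13751 tested genes were higher in Runx1 c-k/o cells at rest and 565 at 3 h.

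The log2 change of B2m on activation in Cre-only cells, 0.03, was -0.051 with DESeq2's size factors in edgeR, -0.051 in DESeq2, -0.126 with at least 10 counts in every sample, -0.503 and -0.613 with 1 RUVs factor in edgeR and DESeq2, -0.036 with only those groups and -0.012 with the 2 libraries left out. That of Nlrc5 was -0.027 with those size factors, -0.027 in DESeq2, -0.102 with that filter and -0.011 with only those groups. The interaction was 0.017, 0.017 and 0.024 for H2-K1 and 0.02, 0.02 and 0.029 for H2-D1 with those size factors, in DESeq2 and with that filter. Between genotypes at rest Tapbp was 0.0 with no filter, and Psmb10 was -0.0 and -0.008 with 1 RUVs factor in edgeR and DESeq2 and -0.009 with the 2 libraries left out. At 3 h, with the 2 libraries left out, B2m was -0.013, Psmb10 -0.06 and Irf1 -0.044.

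Over the fits that left out 1 library each, the log2 difference between genotypes at rest ran from -0.066 to 0.028 for Tapbp, -0.004 to 0.134 for Erap1 and -0.015 to 0.192 for Psmb10. At 3 h it ran from -0.012 to 0.27 for B2m, -0.057 to 0.331 for Psmb10, -0.12 to 0.219 for Nlrc5 and -0.042 to 0.337 for Irf1. The interaction ran from -0.213 to 0.098 for H2-K1, -0.157 to 0.077 for H2-D1 and -0.039 to 0.112 for H2-T23.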
